A study of Mus musculus with 8 samples.

Results

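Of the 23607 named genes on the array, 9 were followed here in A-type, B-type and C-type mouse lung fibroblasts and in pulmonary single cells: C1s1, C1ra, C2, C3, C4b, Cfb, Serping1, Cd55 and C7. They were chosen by name as components and regulators of complement, with earlier results of these data known. All 9 were measured above background on all 8 arrays. Each of the 4 groups had 2 independently prepared samples, 1 array each, of 50000 cells freshly taken from lungs of adult female C57BL/6 mice aged 12 to 16 weeks. No animal carried a transgene or received a treatment that the labels name. The pulmonary single cells (Pu) are the lung suspension from which the 3 fibroblast types (A, B and C) were sorted. The sort used a lineage panel (E-cadherin for epithelium, CD31, CD146 and LYVE-1 for vessels, CD45 and TER119 for blood cells) together with PDGFRA, SCA-1 and THY-1. The combination that defines each type and the number of mice behind a sample are not given in the sources used here. From each sample, 10 ng of RNA was amplified before labelling with the dye Cy3.

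Complement is a set of proteins that mark microbes, immune complexes and dying cells for removal. In the classical pathway, C1q binds a target and activates the proteases C1r and C1s, which cut C4 and C2 to form an enzyme that splits C3. In the alternative pathway, C3b joins with factor B and amplifies its own deposition, and both routes lead to C5 and then to C6, C7, C8 and C9, which form a pore in the membrane. C1 inhibitor, encoded by Serping1, stops C1r and C1s, and CD55 on the cell surface takes apart the enzymes that split C3. Most plasma complement is made in the liver, and stromal cells and macrophages are among the local sources in other organs.

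The table of RefSeq promoters used here held 5 of the 9 genes, on the mouse assembly GRCm38.p6, each as 250 bases before and 50 bases after the start site. The promoters of C1s1, C1ra, C3 and C7 are shown because their transcripts were higher in all 3 types than in pulmonary single cells and because C7 was ordered differently from the other members among the types. Both strands were searched for TATAAA, the core promoter box of that name, for TTGCNNAA, a core of C/EBP sites, and for TTCNNNGAA, the GAS sequence bound by STAT factors. They were also searched for an interferon response core, in which 2 copies of GAAA flank any 2 bases, and for the kappaB consensus. Capitals mark the matches, and no 2 matches overlap.
C1s1 (chr6:124542310-124542609, minus strand): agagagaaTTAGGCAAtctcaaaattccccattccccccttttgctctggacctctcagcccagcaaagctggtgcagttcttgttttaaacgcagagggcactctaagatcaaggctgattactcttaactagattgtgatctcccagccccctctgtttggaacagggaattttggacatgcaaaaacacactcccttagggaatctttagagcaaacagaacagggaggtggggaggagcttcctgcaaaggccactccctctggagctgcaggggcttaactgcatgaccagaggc
C1ra (chr6:124512371-124512670, plus strand): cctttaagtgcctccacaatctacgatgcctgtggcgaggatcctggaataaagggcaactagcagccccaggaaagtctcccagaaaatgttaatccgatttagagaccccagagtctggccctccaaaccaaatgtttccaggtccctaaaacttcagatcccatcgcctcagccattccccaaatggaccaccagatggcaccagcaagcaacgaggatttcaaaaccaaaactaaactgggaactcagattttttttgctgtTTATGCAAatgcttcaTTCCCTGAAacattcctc
C3 (chr17:57228087-57228386, minus strand): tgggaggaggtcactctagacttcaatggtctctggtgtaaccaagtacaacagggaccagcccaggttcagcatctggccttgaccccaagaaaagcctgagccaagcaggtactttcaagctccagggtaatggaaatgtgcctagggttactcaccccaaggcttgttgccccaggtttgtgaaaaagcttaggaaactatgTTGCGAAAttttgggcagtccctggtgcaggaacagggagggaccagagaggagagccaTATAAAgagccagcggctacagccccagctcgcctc
C7 (chr15:5063724-5064023, minus strand): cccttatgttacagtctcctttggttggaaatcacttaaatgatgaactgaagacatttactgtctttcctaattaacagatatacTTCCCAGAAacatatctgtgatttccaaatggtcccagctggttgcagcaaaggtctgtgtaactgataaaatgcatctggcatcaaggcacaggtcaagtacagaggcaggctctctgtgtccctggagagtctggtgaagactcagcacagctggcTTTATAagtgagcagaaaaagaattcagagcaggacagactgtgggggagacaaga

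The C1s1 window held TTAGGCAA, a C/EBP match on the reverse strand, at -242 to -235 from the start site. The C1ra window held TTATGCAA at 17 to 24 and the GAS match TTCCCTGAA at 33 to 41. The C3 window held the C/EBP match TTGCGAAA at -45 to -38 and TATAAA at 15 to 20. The C7 window held TTTATA, the TATA match read on the reverse strand, at -6 to -1 and the GAS match TTCCCAGAA at -164 to -156. These are matches of letters, and nothing here measured binding to them. Among all 32851 promoters in the table, 13.62% held the TATA match, 10.8% the C/EBP match and 8.3% the GAS match. The interferon response core, found in 3.44% of promoters, and the kappaB consensus, found in 8.46%, had no match in the windows of these 5 genes. A second start site of C1s1 and the window of Cd55 held no match to any of the 5 motifs.

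Values are the log2 processed signal minus the 75th percentile of the array, so 0 is the brightness at that percentile. A value describes 1 probe across arrays and is not set against another probe. Over the 17237 genes tested, the 2 arrays of a group correlated at 0.985 for A and for B, at 0.947 for C and at 0.915 for Pu, and 31.2% of genes were at least 2-fold apart between the Pu arrays. The labels of the cells were checked against marker genes. All 6 fibroblast markers, which include collagen genes and Pdgfra, were higher in the fibroblasts than in Pu. All 8 markers of macrophages and dendritic cells were lower. Not every tested marker of other cell types was called lower. The exceptions were Nkg7 (T and NK cells), Prox1 (endothelium), Lamp3 (alveolar epithelium), Wt1 (mesothelium), Acta2 and Cspg4 (smooth muscle and pericytes) and Apoa2 (hepatocytes). Their limma adjusted p values ran from 0.0815 to 0.76. The summed fibroblast markers reached 8.85 to 9.87 on the fibroblast arrays and 5.71 to 5.90 on the Pu arrays, while the summed macrophage and dendritic markers reached 0.31 to 1.08 on the fibroblast arrays and 8.996 to 9.27 on the Pu arrays. The summed mesothelial markers reached -3.45 to -0.17 on the fibroblast arrays and 0.87 to 2.18 on the Pu arrays. Both Pu arrays were on 1 slide and scanned together, and all 6 fibroblast arrays were on another, so the difference of fibroblasts from Pu and that of slide or scan cannot be told apart.

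The first question was which complement transcripts the sort enriched. All 9 members were higher in the mean of the 3 fibroblast types than in Pu, by limma with Benjamini-Hochberg adjustment over all genes tested (adjusted p under 0.05), against 20.8% of all genes tested. For all 9, every fibroblast array was above both Pu arrays, which held for 23.9% of all genes. The median log2 difference was 3.15 over the members and 0.10 over all genes tested. The differences ran from 1.55 for Cd55 to 3.95 for C1s1. Because the members were chosen with earlier results of these data known, these counts describe the list and do not test it. In RNA from whole populations, a higher share of expressing cells and more RNA per cell cannot be told apart.

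The proteases of the first complex lie beside each other on chromosome 6. C1s1, which encodes C1s, the protease that cuts C4 and C2, had values of 5.91 and 5.79 in A, 5.80 and 5.78 in B, 5.15 and 5.15 in C, and 1.92 and 1.36 in Pu. All 6 fibroblast arrays stood far above both Pu arrays, and both C arrays were below every A and B array. The mean of the types was 15.5-fold higher than Pu (log2 difference 3.95 ± 0.24 SE, limma adjusted p = 5.19e-05). By type the fold was 18.5 in A, 17.8 in B and 11.4 in C. Its probe lies at chr6:124480775-124480834 on the mm9 assembly, as the files give it, and a further probe for a predicted transcript was above background on 0 of 8 arrays. C1s2, a near-identical copy, was 8.82-fold higher in the fibroblasts, read from a probe that lists both genes. A second probe, which lists C1s2 alone, was higher by a log2 difference of 3.13 (limma adjusted p = 0.00328 over all probes).

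C1ra encodes C1r, which activates C1s. Its brighter probe (mm9 chr6:124473052-124473111) had values of 5.61 and 5.24 in A, 5.35 and 5.40 in B, 5.35 and 5.41 in C, and 3.01 and 3.59 in Pu. The 6 fibroblast arrays overlapped one another and lay above both Pu arrays, with a fold of 4.28 for the mean of the types (2.10 ± 0.25 SE, limma adjusted p = 9e-04). A second probe of the gene (mm9 chr6:124472674-124472733) had values of 3.65 and 3.81 in A, 3.60 and 3.32 in B, 2.63 and 2.31 in C, and -0.69 and -0.01 in Pu. On this probe both C arrays were below every A and B array, and the log2 difference from Pu was 3.57 rather than 2.10. The 2 probes therefore gave the same direction against Pu but differed on whether C was lower than A and B, by 1.26 for A minus C on the second probe (adjusted p = 0.234 over all probes) and 0.05 on the first.

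C2 and C4b supply the substrates of C1s, and both genes lie on chromosome 17 in the region of the major histocompatibility complex. C2 (mm9 chr17:34999575-34999634) had values of 5.60 and 5.84 in A, 4.99 and 4.75 in B, 4.33 and 3.998 in C, and 0.51 and 1.92 in Pu. The order A, B, C, Pu held without overlap between any neighbouring groups, although no neighbouring pair of types differed by the test. The fold over Pu was 22.8 in A, 12.6 in B and 7.74 in C, with limma adjusted p values of 0.000663, 0.00165 and 0.00416. The sizes rested on which Pu array was used. Without Pu1 the folds for C2 were 14, 7.73 and 4.74, and without Pu2 they were 37.2, 20.6 and 12.6, and every call held. C4b had values of 5.49 and 5.45 in A, 5.30 and 5.18 in B, 5.19 and 5.33 in C, and 1.09 and 2.51 in Pu. The types lay close together, and the mean of the types was 11.5-fold higher than Pu (3.53 ± 0.37 SE, limma adjusted p = 0.000494), or 7.04-fold without Pu1 and 18.8-fold without Pu2. The C4b probe (mm9 chr17:34865328-34865387) lists both C4a and C4b, so the value covers either copy.

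C3, whose cleavage is the step at which the pathways meet, was printed as 10 spots for its main probe (mm9 chr17:57343416-57343475). Its values were 8.58 and 8.64 in A, 8.47 and 8.47 in B, 7.39 and 7.50 in C, and 4.24 and 5.82 in Pu. A and B lay together, C lay below them, and the Pu arrays were below all and far apart from each other. The fold over Pu was 12.0 in A, 10.9 in B and 5.35 in C (limma adjusted p = 0.00217, 0.00252 and 0.0111). Without Pu1 these folds were 6.94, 6.31 and 3.09, and without Pu2 they were 20.7, 18.8 and 9.24, all still passing. A second C3 probe gave 7.40 and 7.41 in A, 7.34 and 7.37 in B, 6.59 and 6.71 in C, and 4.38 and 5.19 in Pu, the same order with smaller gaps.

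Cfb encodes factor B, the partner of C3b in the alternative pathway enzyme. Its probe spans 357 bases of the genome (mm9 chr17:34993502-34993858). Its values were 6.18 and 6.08 in A, 6.26 and 6.01 in B, 4.44 and 3.44 in C, and 3.09 and 2.45 in Pu. A and B overlapped, both C arrays were below them, and C was above Pu on both arrays. The fold over Pu was 10.2 in A (limma adjusted p = 0.00134) and 10.3 in B (adjusted p = 0.0013). In C the difference from Pu was 1.16 ± 0.41 SE (95% interval 0.20 to 2.13) and did not pass (adjusted p = 0.0734). That call changed with several settings: the difference passed with arrays scaled on their median (1.57, adjusted p = 0.0187), in the authors' value table (1.56, adjusted p = 0.0194), with trended robust variance (adjusted p = 0.0385) and without array C2 (1.66, adjusted p = 0.032).

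Serping1 encodes C1 inhibitor, which binds and inactivates C1r and C1s. Its main probe (mm9 chr2:84605663-84605722) had values of 8.43 and 8.50 in A, 8.48 and 8.36 in B, 7.84 and 7.72 in C, and 4.35 and 5.37 in Pu. The fibroblast arrays were all above both Pu arrays and the C arrays were below the A and B arrays. The fold over Pu was 12.2 in A, 11.8 in B and 7.60 in C (limma adjusted p = 0.000657, 0.000674 and 0.00168). A second probe, which spans 1507 bases of the genome, gave 6.51 and 6.52 in A, 6.56 and 6.51 in B, 6.20 and 6.29 in C, and 3.95 and 2.93 in Pu. The 2 Pu arrays were thus ordered oppositely by the 2 probes of Serping1, whereas the fibroblast arrays were far above Pu on both.

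Cd55 encodes decay-accelerating factor, which protects a cell's own surface from complement. Its probe (mm9 chr1:132335716-132335775) had values of -0.21 and -0.16 in A, 1.31 and 1.81 in B, 0.01 and -0.65 in C, and -1.08 and -1.32 in Pu. B stood above every other array, A and C overlapped, and both Pu arrays were lowest. B was 6.76-fold higher than Pu (2.76, limma adjusted p = 0.00139). A was 1.01 ± 0.34 SE above Pu (95% interval 0.21 to 1.82, adjusted p = 0.067), and C was 0.88 above Pu (95% interval 0.07 to 1.68, adjusted p = 0.0975). Neither passed, but both passed with arrays scaled on their median (1.36 and 1.28, adjusted p = 0.0206 and 0.0242) and in the authors' table (1.35 and 1.27, adjusted p = 0.0222 and 0.026). For A the call was also made with quantile normalization (adjusted p = 0.0409) and without either C array (adjusted p = 0.0479).

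C7 encodes a component that anchors the growing membrane pore. Its main probe (mm9 chr15:4952733-4952792) had values of 5.18 and 4.97 in A, 4.73 and 4.76 in B, 5.97 and 6.10 in C, and 2.76 and 3.18 in Pu. C was the highest group and Pu the lowest, and A, B and C did not overlap. The fold over Pu was 4.29 in A, 3.42 in B and 8.36 in C (limma adjusted p = 0.00201, 0.00399 and 0.000449). A second C7 probe, at mm9 chr15:4981891-4981950, had values of 1.56 and 1.52 in A, 1.15 and 1.22 in B, 2.48 and 2.71 in C, and -1.15 and -0.37 in Pu, in the same order.

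**Figure D1:**
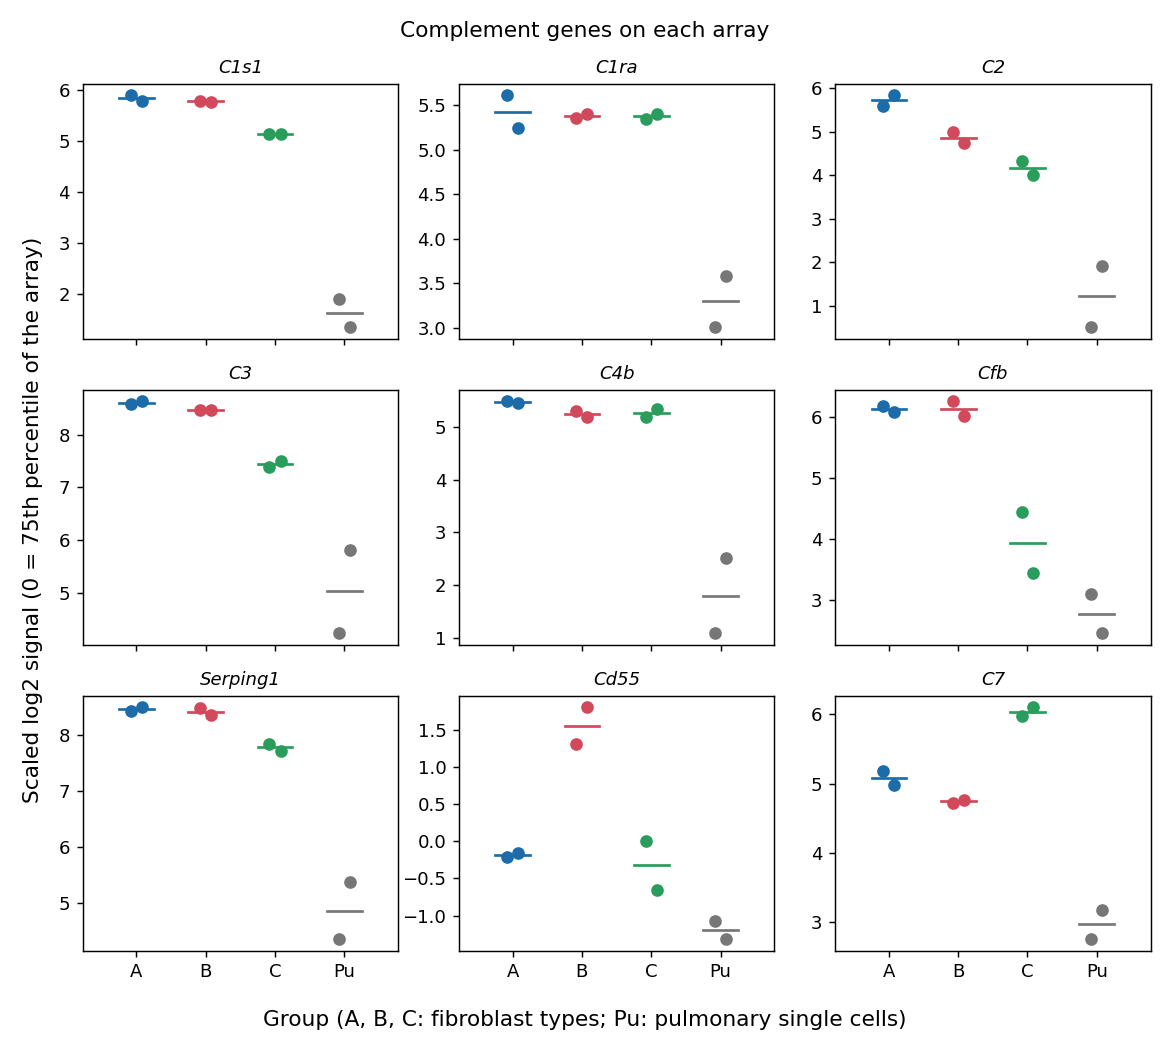
Scaled log2 signal (0 is the array's 75th percentile) of the 9 complement genes on each array, points per array and bars at the mean of 2, in A, B and C fibroblasts and in pulmonary single cells (Pu). All fibroblast points lie above both Pu points in every panel, and C is below A and B for Cfb and C3 and above them for C7.

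Type by type, 8 of 9 members were higher in A than in Pu, where 15.2% of all genes were. The exception was Cd55. In B all 9 were higher, against 16.4% of all genes, and in C 7 were, against 15.3%. Cfb and Cd55 were the 2 that did not pass in C. No member was lower in any type. The median member difference from Pu was 3.58 in A, 3.44 in B and 2.93 in C, beside 0.12, 0.11 and 0.06 over all genes. These 3 comparisons share the same Pu arrays. Passing in 1 type and not in another does not show a difference between types, which was tested on its own.

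**Figure D2:**
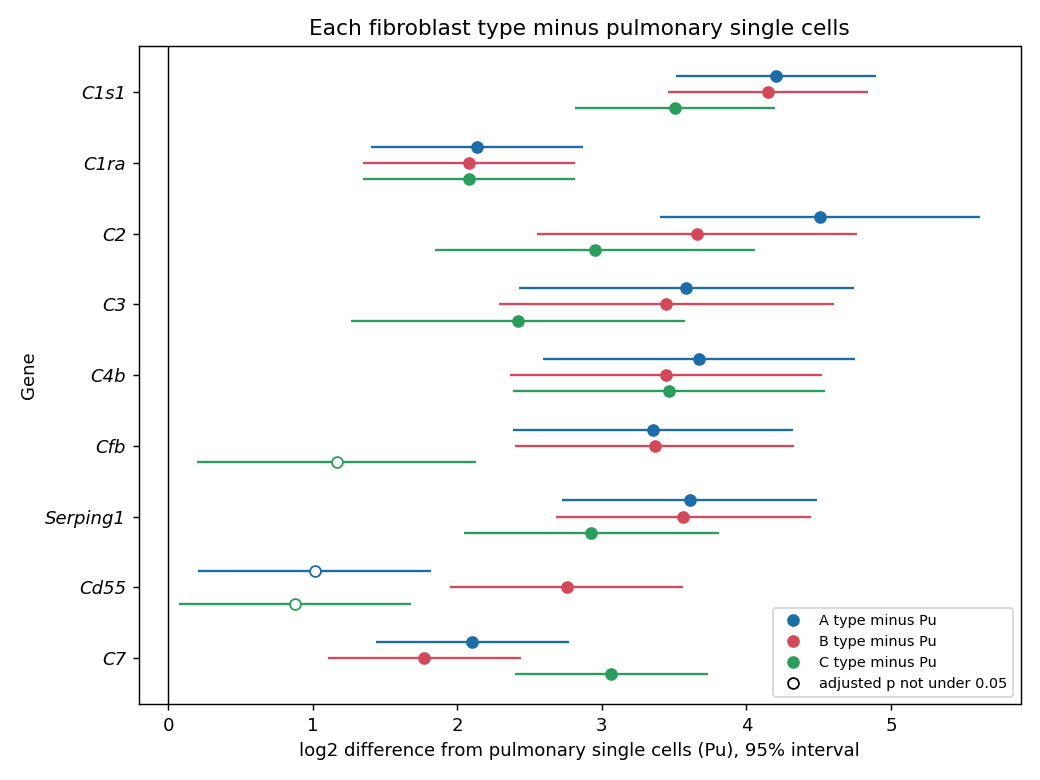
Log2 difference of each fibroblast type from pulmonary single cells (Pu), with 95% intervals from limma on 8 arrays; filled points passed an adjusted p under 0.05 and open points did not. C1s1 was higher in all 3 types, by 4.21, 4.15 and 3.50, and the open points are Cd55 in A and Cd55 and Cfb in C.

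The next question was whether the members differed among the 3 types, which shared a slide and a scan. Between B and C, Cfb and Cd55 were higher in B, 2 of 9 members in a comparison that called 2.48% of all genes in either direction (1.28% higher in B). Cfb was 4.59-fold higher in B than in C (2.20 ± 0.41 SE, limma adjusted p = 0.0443). Cd55 was 3.68-fold higher in B than in C (1.88 ± 0.34 SE, adjusted p = 0.0406). In both cases the B arrays were above the C arrays. Both adjusted p values were near the threshold and were lost when either A array, either B array or C2 was left out (adjusted p from 0.112 to 0.307), with no filter on dim probes (0.0831 and 0.0816), with every probe tested (0.0662 and 0.0633) and with only the arrays of B and C in the fit (0.115 and 0.116). Both were kept without C1, Pu1 or Pu2. Without C2 the difference was 1.70 for Cfb and 1.55 for Cd55. The call for Cfb alone was lost with quantile normalization (0.0554), and the call for Cd55 alone was lost with the replicate number as a block (0.0773).

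Among the cell type markers, 2 differed between B and C. Dcn, a fibroblast proteoglycan gene, had 8.28 and 8.31 in B and 6.58 and 5.28 in C (5.14-fold higher in B, limma adjusted p = 0.0412). Sftpc, a gene of alveolar epithelium, had -1.87 and -0.97 in B and 3.11 and 1.23 in C (12.1-fold lower in B, adjusted p = 0.0332). Their part in the differences of Cfb and Cd55 was not tested.

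C7 ran the other way, with both C arrays above both B arrays. Its difference of B minus C was -1.29 ± 0.28 SE (95% interval -1.96 to -0.62, limma adjusted p = 0.0711), and it did not pass. It passed with normexp background correction (adjusted p = 0.0437), the stricter filter (0.0484), trended robust variance (0.0226) and array weights (0.0381), and without Pu1 or Pu2 (0.0311 in each case). C3 was 1.03 ± 0.49 SE higher in B than in C (adjusted p = 0.393), and it also passed without Pu1 or Pu2 (adjusted p = 0.0451). A lone Pu array adds nothing to the estimate of the spread. The remaining differences of B minus C were 0.71 for C2, 0.65 for C1s1, 0.64 for Serping1, -0.02 for C4b and -0.001 for C1ra. For 6 members every B array exceeded every C array, where 29.3% of all genes did, and for 1 member, C7, every C array exceeded every B array, as for 25% of all genes. The median member difference was 0.65, beside 0.05 over all genes.

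A fit of only the 6 fibroblast arrays was added after the data had been seen, because the Pu arrays varied most between replicates. In it, Cfb, Cd55, C3 and C7 differed between B and C, 4 of 9 members, with adjusted p values of 0.039, 0.039, 0.0451 and 0.0311 in limma. The differences were the same as before, and their standard errors were 0.36, 0.31, 0.18 and 0.19. This fit called 798 of all 17237 genes between B and C, against 428 of them (2.48%) with all 8 arrays.

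Between A and C, 0 of 9 members passed, in a comparison that called 0.441% of all genes, and 5 members had an unadjusted p under 0.05, against 13% of all genes. Cfb was 2.19 ± 0.41 SE higher in A than in C (95% interval 1.22 to 3.16, limma adjusted p = 0.081), with both A arrays above both C arrays. It passed with normexp background correction (adjusted p = 0.0182), with trended robust variance (0.0389), with array weights (0.0375) and without C1 (0.0353). C2 was 1.56 ± 0.47 SE higher in A (adjusted p = 0.227) and C3 1.17 ± 0.49 SE higher (adjusted p = 0.382). C1s1 was 0.70 and Serping1 0.68 higher in A, C4b 0.21, Cd55 0.14 and C1ra 0.05. C7 was 0.96 ± 0.28 SE lower in A than in C (adjusted p = 0.216). With only the 6 fibroblast arrays, 0 members passed, and the lowest adjusted p values were 0.0524 for C2 and 0.0566 for C3. The A and C arrays were apart for 7 of 9 members, 6 higher in A (28.6% of all genes) and 1 lower (25%).

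Between A and B, 0 of 9 members and 0 of 17237 genes passed in limma with Benjamini-Hochberg adjustment. At an unadjusted p under 0.05 there were 560 genes, 3.25% of those tested, and 1 member. That member was Cd55, which was 1.74 ± 0.34 SE lower in A than in B (95% interval -2.55 to -0.94, adjusted p = 0.266), with both A arrays below both B arrays. It passed when arrays were weighted by their quality (adjusted p = 0.0131), a fit that called 241 genes. C2 was 0.86 ± 0.47 SE higher in A (95% interval -0.25 to 1.96). The other differences lay between -0.01 for Cfb and 0.33 for C7. For 4 members A was above B on every array, where 21.5% of all genes were, and for 1 it was below, where 22.2% were.

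**Figure D3:**
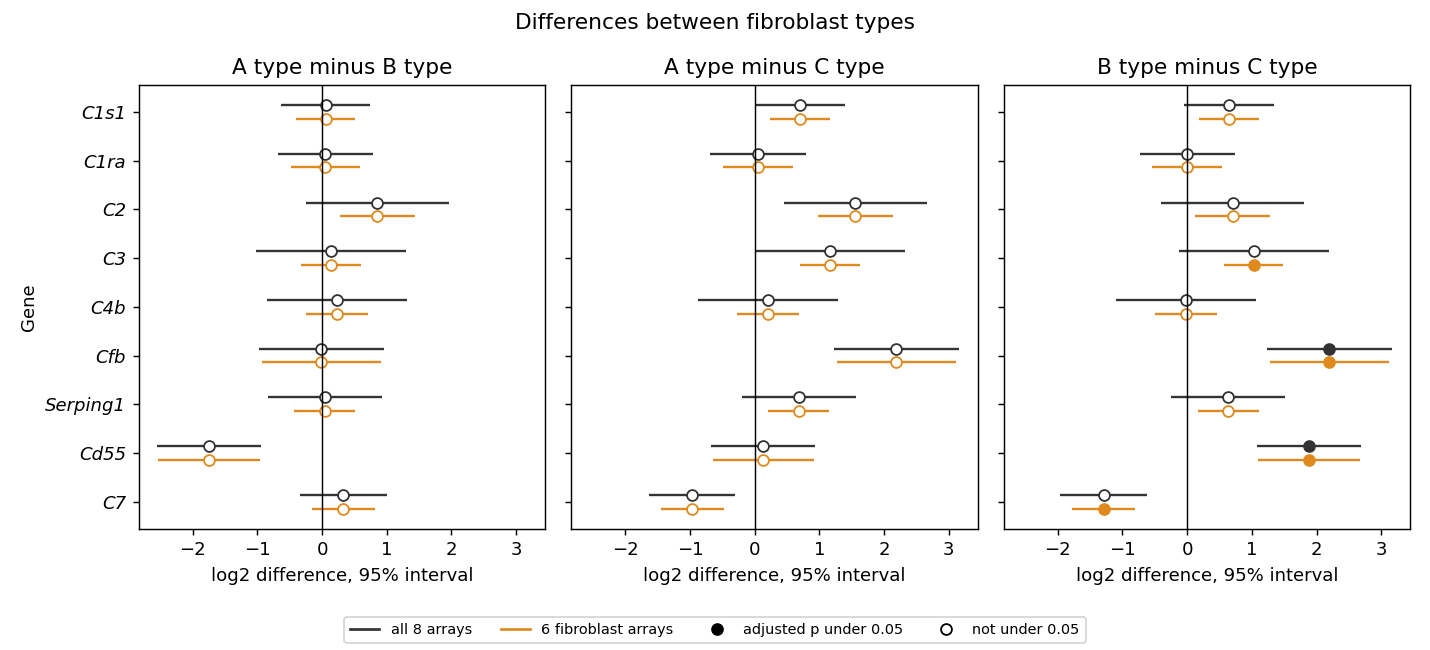
Log2 differences between fibroblast types with 95% intervals, black from the fit of all 8 arrays and orange from the 6 fibroblast arrays alone; filled points have an adjusted p under 0.05. Filled points appear only in B minus C: Cfb and Cd55 in both fits, and C3 and C7 in the 6-array fit.

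C1ra, C3, C7 and Serping1 each had a second measured probe, and Cfb, C2, C4b and Cd55 had 1 probe. Every second probe was higher in the mean of the 3 types than in Pu, by 3.57 for C1ra, 2.35 for C3, 2.53 for C7 and 2.99 for Serping1 (limma adjusted p over all probes of 0.000226, 0.00134, 0.000948 and 0.000731). C7 was lower in B than in C on both probes, by a log2 difference of -1.41 on the second. Cd55 has a near-identical neighbour, Cd55b, with 2 probes. The brighter Cd55b probe had values of 2.12 and 1.98 in A, 3.52 and 3.79 in B, 2.19 and 1.92 in C, and 1.04 and 0.66 in Pu, so that B was highest there as on the Cd55 probe. The dimmer Cd55b probe had values of -0.04 and -0.28 in A, 0.01 and 0.37 in B, -0.66 and -0.56 in C, and 0.62 and 1.19 in Pu, and was lower in the fibroblasts than in Pu. The 2 Cd55b probes thus gave opposite signs against Pu (1.74 and -1.10, adjusted p over all probes of 0.00284 and 0.0234). How far the Cd55 and Cd55b probes read each other's transcript was not tested.

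**Figure D4:**
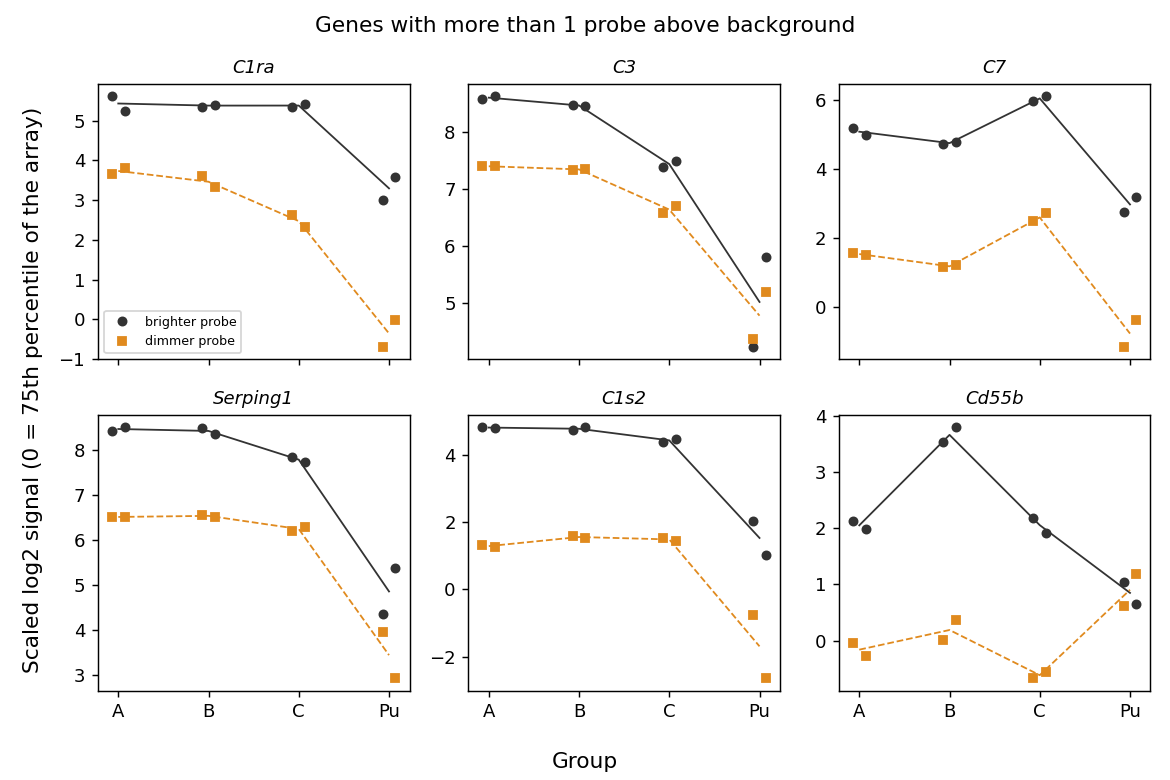
Scaled log2 signal of the brighter probe (circles) and the dimmer probe (squares) of C1ra, C3, C7, Serping1, C1s2 and Cd55b on each array, lines joining the means of A, B, C and Pu. The probes run in the same order for C3 and C7, differ at C for C1ra, and have opposite signs against Pu for Cd55b.

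The rest of the cascade was followed through 48 other complement genes, of which 47 were on the array and 32 were above background often enough to be tested. In the mean of the 3 types, 10 of the 32 were higher than in Pu and 13 were lower, where 20.8% and 16.3% of all genes were called. The filter set part of these counts. Of the 13 lower genes, 7 were above background on both arrays of Pu and of no other group (C1qa, C1qc, Mbl1, Vtn, C5ar1, C5ar2 and Itgax), and of the 10 higher genes, 2 were not above background on both Pu arrays (Colec11 and Csmd1). By type the counts were 9 higher and 13 lower in A, 10 and 14 in B, and 7 and 13 in C, where the lower calls were 11.9%, 13.1% and 13.8% of all genes. The genes named next, other than the 4 with the largest differences in each direction and those that differ between types, were singled out after their values were seen.

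Among genes that start the classical and lectin pathways, 4 of 11 tested were higher and 4 were lower, where 20.8% and 16.3% of all genes were. Of the lower genes, C1qa, C1qc and Mbl1 passed the filter through Pu alone. Of the higher genes, Colec11 passed it through the fibroblasts alone. C1rb, the copy of C1ra, was 10.5-fold higher (limma adjusted p = 9.6e-05), and C1s2 was 8.82-fold higher (adjusted p = 0.000338). The C1s2 probe used here also lists C1s1. A pair of collectins, which bind sugars on microbes, were also higher. Colec12 was 7.02-fold higher (adjusted p = 0.000123). Colec11 had means of -0.20 in the fibroblasts and -3.38 in Pu, where it was above background on 1 of 2 arrays. The 3 chains of C1q, which macrophages make and which binds the target, were lower in the fibroblasts. C1qa had values of -3.60 and -4.19 in A, -5.18 and -3.57 in B, -3.40 and -3.39 in C, and 0.23 and 0.47 in Pu. It was above background on 3 of 6 fibroblast arrays, 1 in each type, so its fitted fold of 18.9 rests partly on signal at background. C1qb, above background on all 8 arrays, was 6.15-fold lower (limma adjusted p = 0.00106). C1qc was above background on both Pu arrays and on 0 of 6 fibroblast arrays, a fall of at least 21.5-fold. The summed macrophage and dendritic markers given above were lower in the same arrays, and their part in this was not tested.

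In the alternative pathway, Cfp, which encodes the stabilising protein properdin, was 9.55-fold lower (limma adjusted p = 0.000352). Cfd, which encodes the protease that cuts factor B, was not tested because it was above background on 1 of 8 arrays. Of the terminal genes, Hc, which encodes C5, was 68.6-fold lower (adjusted p = 4.1e-05) with 5 of 6 fibroblast arrays above background, while C8a, C8b and C9 were above background on 0 arrays. C6, with a difference of -2.12 (adjusted p = 0.076), and C8g, with 1.21 (adjusted p = 0.303), did not pass. Both means hung on array C2. C6 was 0.23 there and -4.50 to -3.15 on the other fibroblast arrays. C8g was 1.13 there and -2.65 to -0.92 on the others. By type, C6 was called lower than Pu in B (limma adjusted p = 0.045), where it was above background on 0 of 2 arrays. Among the 4 terminal genes tested, C7 was thus the 1 called higher in the fibroblasts. C8g also had a higher mean there without passing.

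Among regulators, Vtn, which encodes vitronectin, a soluble inhibitor of pore formation, was above background on both Pu arrays and on 0 of 6 fibroblast arrays, a fall of at least 6.79-fold. Of the 5 membrane regulators tested, 4 were higher, where 20.8% of all genes were. Cd59a, which blocks pore assembly, was 3.66-fold higher (limma adjusted p = 0.000952), and Cr1l was 2.82-fold higher (adjusted p = 0.0136). The other members of the 4 were Csmd1 and Cd55b. Csmd1 passed the filter through the fibroblasts alone, with 0 of 2 Pu arrays above background. Its fibroblast and Pu arrays overlapped, and its call was lost with normexp (limma adjusted p = 0.192) and array weights (0.0541). The call of Cd55b, the near-identical copy of Cd55, was lost with probes averaged (0.274), and its dimmer probe was lower than Pu.

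Of 9 receptor genes tested, 6 were lower in the fibroblasts, where 16.3% of all genes were. Of these 6, C5ar1, C5ar2 and Itgax passed the filter through Pu alone, so the filter set part of the count. Only 1 receptor gene, C1qbp, was higher (2.23-fold, limma adjusted p = 0.0416), where 20.8% of all genes were. The call of C1qbp was lost with no filter (0.0683), with array weights (0.104) and without Pu1 (0.157), among other settings. Cd93 was 277.3-fold lower (adjusted p = 1.51e-05) with 5 of 6 fibroblast arrays above background, and Itgb2 was 265.3-fold lower (adjusted p = 1.51e-05) with all 6 above it. Itgax and C5ar1 were above background on both Pu arrays and on 0 of 6 fibroblast arrays, falls of at least 73.8-fold and at least 40.5-fold. Itgax and Itgb2 encode integrin chains of leukocytes, C5ar1 a receptor for the C5a fragment, and Cd93 a surface protein of endothelial and myeloid cells. The anaphylatoxin receptor C3ar1 was 12.9-fold lower (adjusted p = 0.000556), with 5 of 6 fibroblast arrays above background. Itgam, the leukocyte integrin chain that pairs with that of Itgb2, had means of 7.01 in the fibroblasts and 7.55 in Pu and did not pass (adjusted p = 0.409). Whether its probe reads Itgam was not tested, and the value may not be a level of that gene.

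Between types, 3 of the 32 genes passed, all in B minus C, 2 higher in B (1.28% of all genes) and 1 lower (1.21%). One of the higher genes, Masp1, a protease of the lectin pathway, passed the filter through B alone. It was above background on both B arrays, 1 A array and no C or Pu array (0 of 2 each). The rise of Masp1 in B over C was at least 2.93-fold (limma adjusted p = 0.0319). With normexp background correction its log2 difference was 0.32 (adjusted p = 0.637). The call of Masp1 was also lost with no filter (0.0569), with array weights (0.0636) and without B1, B2, C1 or C2. Cd55b was 3.04-fold higher in B (limma adjusted p = 0.0411). Cd59a was 2.97-fold lower in B than in C (adjusted p = 0.0394), with values of 2.10 and 1.72 in B and 3.53 and 3.42 in C. The calls of Cd55b and Cd59a were lost with every probe tested (0.066 and 0.0645), with no filter (0.0851 and 0.0842), with the replicate number as a block (0.0784 and 0.0823) and with only the B and C arrays (0.0906 and 0.0953). They were also lost without A1 or A2 (0.116 and 0.112), without B1 (0.239 and 0.202), without B2 (0.317 and 0.322) and without C2 (0.144 and 0.114), and that of Cd59a without C1 (0.0677). The dimmer Cd55b probe gave 0.80 for B minus C (adjusted p = 0.366 over all probes). Cd55 and Cd59a differed in opposite directions between B and C.

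**Figure D5:**
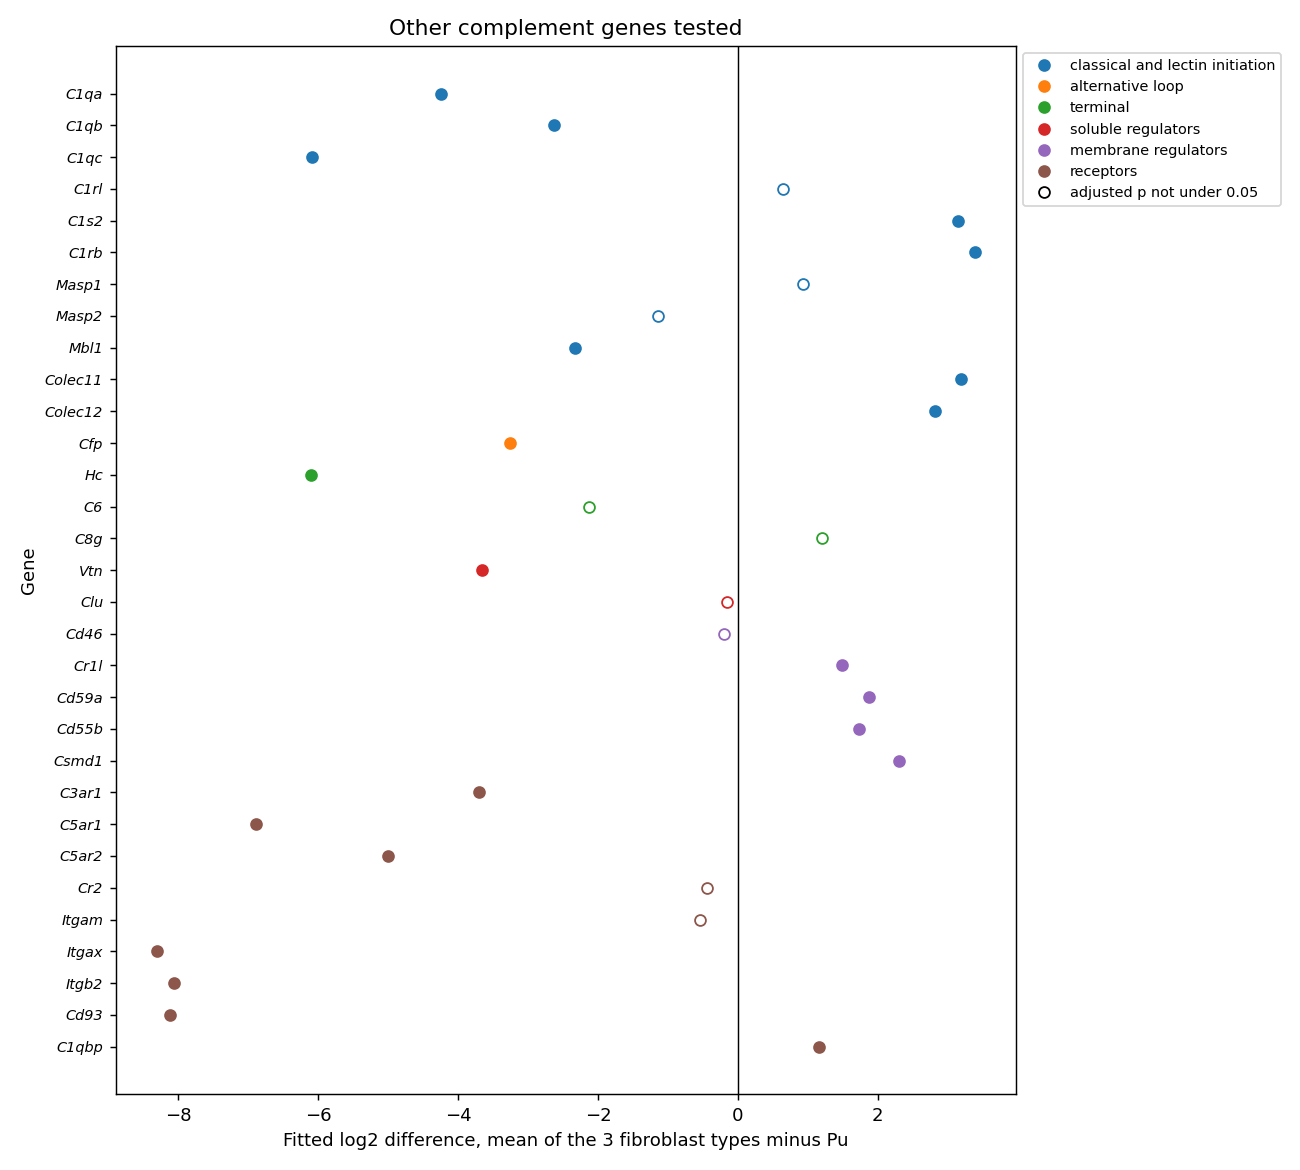
Fitted log2 difference of the mean of the 3 fibroblast types from Pu for 31 of the 32 other complement genes tested, coloured by role, filled where the adjusted p is under 0.05. Filled receptor points lie furthest to the left, near -8 for Itgax, Itgb2 and Cd93, and C1rb, Colec11 and C1s2 lie furthest to the right; for genes below background in a group, such as Itgax and Vtn, the fitted value is no measured size.

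The genes whose levels followed the members most closely over the 8 arrays were found by Pearson correlation. The 8 arrays form 4 groups and the correlations are descriptions of these arrays. The 2 closest genes were Ube2e2 (r = 0.998) and Gm10667 (r = 0.998) for C1s1, Tril (r = 0.996) and Oplah (r = 0.995) for C1ra, and Pheta2 (r = 0.997) and Plekhg2 (r = 0.993) for C2. They were Irak1 (r = 0.998) and Klhl13 (r = 0.998) for C3, Plxdc2 (r = 0.999) and Col5a3 (r = 0.999) for C4b, and Cep112os2 (r = 0.999) and Fbln1 (r = 0.999) for Serping1. Cfb ran closest to Rtn4r (r = 0.996) and Entpd2 (r = 0.994), which were low in C as well as in Pu. The lowest signal well above background was -3.84 and -4.46 on the Pu arrays and -3.85 and -3.35 on the C arrays. Below these lay the Pu means of Rtn4r (-6.30), Gm10667 (-6.36) and Cep112os2 (-5.16) and the C mean of Rtn4r (-5.015). The correlations of these 3 genes therefore rest partly on signal at background. Cd55 had the weakest matches, Snrpb2 (r = 0.967) and Bmp2 (r = 0.961), and Bmp2 averaged 0.97 in B, against -0.32 in A, -0.14 in C and -1.08 in Pu. C7 ran closest to Sh3bp5 (r = 0.999) and Kctd10 (r = 0.993), which were highest in C, at 3.81 and 5.75.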

How the data were processed

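Amplified RNA of 4 groups, 2 samples each, was hybridised to 8 single-colour Agilent arrays. Per the file headers and the submitters' processing notes, the deposited scanner files hold intensity values per spot from Agilent Feature Extraction 10.10.1.1, of which the background-subtracted processed signal was used. The authors' value table holds log2 values. Of 55653 probes compared, 99.574% equalled the log2 processed signal minus a constant per array within 0.02 on every array, and column medians were 4.84 to 4.85, so its scale and direction are settled. It served as an alternative.

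Each array has 62976 spots, 59305 of them not controls. Spots of 1 probe were averaged, 28 probes left without a usable spot on some array were dropped, and no value was at saturation (0). Gene names came from RefSeq by accession, synonym or symbol. The log2 signal was scaled by subtracting each array's 75th percentile. Genes were tested where a probe was well above background on both arrays of at least 1 group (17237 of 23607), with the brightest such probe standing for the gene. Tests used limma 3.58.1 in R 4.3.3 on all 8 arrays and 4 group means (4 residual and 3.05 prior degrees of freedom), Benjamini-Hochberg adjustment over all genes in each of 7 comparisons, and a threshold of 0.05; the scripts were tested on simulated data. A fold against a group below background on all its arrays is a bound, against the lowest signal well above background on each array. The number of arrays limits the precision, and p-values measure only the spread between independently prepared samples. A probe's exon was not looked up, since no annotation of mm9, the build in the files, was used here.

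The 9 members and all gene lists were chosen with earlier results of these data known. The text names all members, the other complement genes with the 4 largest called differences in each direction against Pu and the 3 largest between types, and the 2 genes most correlated with each member. 1 gene that this rule names is not reported here. Promoters came from RefSeq. Figures used matplotlib 3.10.9 and Python 3.11.15 with numpy 2.4.6 and pandas 2.3.3. Alternatives varied scaling, background, filter, probe summary, variance, arrays and the replicate block.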

Additional observations from a re-analysis of the deposited data

Results flagged for a closer look

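2 members differed between fibroblast types by the test of the difference itself. Cfb was 2.20 higher on the log2 scale in B than in C (limma adjusted p = 0.0443), with both B arrays above both C arrays. Cd55 was 1.88 higher in B than in C (limma adjusted p = 0.0406), again with both B arrays above both C arrays. Both calls were lost with no filter (0.0831 for Cfb and 0.0816 for Cd55), with every probe tested (0.0662 and 0.0633) and with only the B and C arrays (0.115 and 0.116). They were also lost without A1, A2, B1, B2 or C2.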

How the results depend on the processing

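The members and the other complement genes named as called were recomputed under 22 other settings. The count of members higher than Pu in the mean of the types and in B was 9 in every leave-one-out fit, in A it was 8 to 9 and in C 7 to 8. Between types, the main counts of members passing were 0 for A minus B, 0 for A minus C and 2 for B minus C. The first became 1 with array weights, and the second became 1 with array weights, normexp or trended robust variance and ranged over 0 to 1 leaving out single arrays. The third became 0 with no filter, with every probe tested or with only the arrays compared, 1 with quantile normalization, 3 with normexp, the stricter filter, trended robust variance or array weights, and 4 with only the 6 fibroblast arrays, which was chosen after seeing the data, and ranged over 0 to 4 leaving out single arrays. Array weights ended the call of Cd55 for the mean of the types against Pu (adjusted p = 0.059), and only the arrays compared ended that of C3 in C against Pu (0.0593).

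Replicate numbers are not said to pair samples, and replicate differences of the groups correlated at -0.084 to 0.059. With the replicate number as a block, 1 member passed in B minus C rather than 2 and no other member call changed.

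Signs turned only in uncalled small differences. For C1ra, A minus C was -0.01 with median scaling, -0.01 in the authors' table and -0.05 with quantile normalization, and B minus C was 0.15 with normexp and 0.49 with probes averaged. For Cfb, A minus B was 0.02 with the percentile of probes detected on every array, 0.01 with quantile normalization and 0.008 with normexp. For C4b, B minus C was 0.11 with normexp. Leaving out single arrays gave ranges for A minus B of -0.004 to 0.12 for C1s1, -0.13 to 0.24 for C1ra, -0.13 to 0.11 for Cfb and -0.016 to 0.10 for Serping1, for A minus C of -0.13 to 0.24 for C1ra and -0.20 to 0.47 for Cd55, and for B minus C of -0.029 to 0.027 for C1ra and -0.095 to 0.053 for C4b. The cause was not tested. Of the other complement genes, Cd59a between B and C was also lost with median scaling (0.0599) and in the authors' table (0.0651), Cd55b with quantile normalization (0.0554) and with probes averaged (0.0636), where Cd55b against Pu was 0.32 (0.274).

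Median scaling moved the median of all genes in fibroblasts minus Pu to 0.47, against 0.10, and the authors' table moved it to 0.46, while the percentile taken over probes detected on every array moved it to -0.21. The share of calls that were higher was 56.0%, but 72.3% with median scaling, 71.9% in the authors' table, 39.5% with that percentile and 71.0% with the stricter filter. With every probe tested, counts are of 37837 probes rather than 17237 genes, so their size is not comparable with that of the main fit. Counts over all genes or probes moved by over 1.5 times in these cases. In A minus B (0 genes) they were 22 with normexp, 10 with trended robust variance and 241 with array weights. In A minus C (76 genes) they were 176, 141 and 222 in the same order, 1 with no filter, 50 with the stricter filter, 23 with every probe, 0 with the block or only the arrays compared, 204 with the 6 fibroblast arrays, and 0 to 485 leaving out single arrays. In B minus C (428 genes) they were 249 with no filter, 730 with array weights, 123 with only the arrays compared and 798 with the 6 fibroblast arrays, and 2 to 920 leaving out single arrays. Against Pu they were 3102 for the mean of the types (6396) and 2173 for C (5008) with array weights, 10262 and 7822 with every probe, 2264 for C with only the arrays compared, 2159 without A2 and 2407 without A1 for A (4683), and 2359 without B1 and 2482 without B2 for B (5082). Slide and scan as blocks were not run, since they could not be fitted against Pu and all types shared 1 of each. Depth is not defined for arrays; the genes below background on all arrays have no level here.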
